A study of Mus musculus with 8 samples.

Results

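Liver X receptors (LXRs) are nuclear receptors that sense oxidized cholesterol and bind DNA as heterodimers with a retinoid X receptor (RXR). The element they are best known for is the DR4, a pair of hexamer half-sites read in the same direction with 4 bases between them; thyroid hormone receptors use the same spacing with RXR. In macrophages LXRs are known for turning on genes of cholesterol export and of the uptake of dying cells. The regions described here are distal regions of open chromatin that hold a DR4 match in alveolar macrophages (AMs), the resident macrophages of the airspaces, which clear surfactant lipid and inhaled particles.

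ATAC-seq, which uses a transposase to tag accessible DNA, was performed on AMs sorted from the bronchoalveolar lavage of adult mice on the C57BL/6J background. The sample titles name the cells AMs only. The paper's text calls the cells of both genotypes mature AMs, while its supplementary ATAC-seq legend calls the KO cells immature AMs in places. WT mice carried floxed Rxra and Rxrb alleles without Cre (Rxrab fl/fl, 4 libraries, replicates 1_2, 1_3, 3 and 4), and KO mice carried the same floxed alleles with Cre under the Cd11c promoter (Cd11cCre+ Rxrab fl/fl, 4 libraries, replicates 1_2, 1_3, 2 and 3). Cre thus deletes both receptors in cells that express CD11c, which include AMs but are not AMs alone. Peaks of the 8 deposited lists that shared a base were merged, which left 72711 regions found in at least 2 libraries, of which 70896 lay on the 19 autosomes and 51733 were distal, with a summit 1 to 100 kb away from any transcription start site (TSS). Members were the 1401 distal regions with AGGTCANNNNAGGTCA within 100 bp of the summit on either strand, with at most 2 mismatches over the 12 half-site bases, and without the 1-base spacing of a DR1 under the same limit. The rule used sequence, position and the presence of a peak in at least 2 libraries, and not the genotype.

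The lists held 60363 to 72484 peaks. Read depth was not in the files, but the number of tags piled up at each summit could be read back as a whole number from the deposited fold and p-value, and its median was 57 to 91 tags over the regions found in every library. Levels below are these summit tags scaled to a common median. A library without a peak is not a library without tags, because the caller tested each summit against its local background. KO replicates 1_2 and 1_3 differed by no more than sampling noise (chi-square per degree of freedom 1.004 over 38229 regions, p = 0.276), whereas every other pair of a genotype had a ratio of 1.06 to 2.15. That KO pair was therefore counted as 1 sample in means and SDs (KO n = 3). The fit, with its SEs and p-values, took all 8 libraries as separate samples and so counted that pair as 2. The counts over all members are also given with the pair as 1 sample. Counts of calls for smaller sets of members are from the fit of 8 libraries alone. The labels call the libraries biological replicates without naming the mice, so p-values measure the spread between these libraries, which may be technical in part. Fewer cells with a region open and a less open region in each cell cannot be told apart in such bulk libraries. An Rxra intron held 1 region with a peak in all 4 WT libraries and in no KO library. Of the 18 regions at Rxra, 13 had a peak in all libraries. Rxrb had 2 regions, and 0 of them had a peak in WT libraries only. Of 8 AM marker promoters, 7 had a peak in all libraries and Chil3 had none; promoters of the 3 T cell markers had none in any library, while Cxcr2, Epcam, Cx3cr1 and Ly6c2, markers listed for neutrophils, epithelium and monocytes, had a peak in all libraries of both genotypes.

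Of the 1401 distal DR4 regions, 7 matched all 12 bases, 140 had 1 mismatch and 1254 had 2. The 7 full matches are shown because they carry the element without any departure from the consensus. Each line gives the gene of the nearest TSS, the mm10 coordinates and strand of 40 bases, and the sequence 5′ to 3′ on that strand, with capitals for half-site bases identical to the consensus.
Lrrfip1, chr1:91092630-91092669, plus strand: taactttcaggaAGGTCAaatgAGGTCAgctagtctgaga
Nrbf2, chr10:67290743-67290782, minus strand: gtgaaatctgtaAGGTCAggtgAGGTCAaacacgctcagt
Lifr, chr15:7073488-7073527, plus strand: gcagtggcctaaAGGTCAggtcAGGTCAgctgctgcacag
Gm36642, chr15:25524439-25524478, minus strand: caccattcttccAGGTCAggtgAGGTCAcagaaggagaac
Tbc1d1, chr5:64205764-64205803, plus strand: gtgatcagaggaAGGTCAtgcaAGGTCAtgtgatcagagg
Ptpre, chr7:135598025-135598064, minus strand: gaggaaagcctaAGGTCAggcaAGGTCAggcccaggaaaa
Isx, chr8:74930868-74930907, plus strand: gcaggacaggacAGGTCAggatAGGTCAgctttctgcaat
The Lrrfip1, Tbc1d1 and Ptpre sites lay in introns of those genes, and the other 4 were intergenic.

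The next set shows the 10 regions called lower and the 3 called higher that differed most between genotypes, with the Mertk intron site, the only site of the 8 fitted at LXR target genes that was called. Their matches had 1 or 2 mismatches. The site listed by its nearest TSS as Gm14011 is the one in the Mertk intron, that of Gm26666 lies in a Bcat1 intron and that of Gm48654 in a Sash1 intron.
Gm28721, chr1:90234616-90234655, plus strand: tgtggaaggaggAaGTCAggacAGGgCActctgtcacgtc
Prok2, chr6:99774773-99774812, plus strand: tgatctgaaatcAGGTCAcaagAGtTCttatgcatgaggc
Map2k6, chr11:110426927-110426966, minus strand: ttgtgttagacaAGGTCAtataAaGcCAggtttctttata
Ppip5k1, chr2:121329614-121329653, minus strand: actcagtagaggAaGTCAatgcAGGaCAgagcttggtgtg
Tmem138, chr19:10569848-10569887, plus strand: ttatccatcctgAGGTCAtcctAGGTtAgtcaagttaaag
Prkce, chr17:86203182-86203221, minus strand: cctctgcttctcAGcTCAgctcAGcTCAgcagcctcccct
Gm26666, chr6:145003660-145003699, minus strand: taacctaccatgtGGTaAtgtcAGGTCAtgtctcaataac
Clec16a, chr16:10566206-10566245, minus strand: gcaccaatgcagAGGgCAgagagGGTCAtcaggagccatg
Nnmt, chr9:48649254-48649293, minus strand: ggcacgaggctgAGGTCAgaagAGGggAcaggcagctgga
Gm14321, chr2:167744374-167744413, plus strand: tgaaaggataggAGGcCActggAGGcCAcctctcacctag
Gm14011, chr2:128782413-128782452, minus strand: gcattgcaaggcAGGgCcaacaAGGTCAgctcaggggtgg
Gm27207, chr8:87346025-87346064, plus strand: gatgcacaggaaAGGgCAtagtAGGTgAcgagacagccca
Gm35722, chr10:100834891-100834930, minus strand: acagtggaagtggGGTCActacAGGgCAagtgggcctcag
Gm48654, chr10:8759248-8759287, plus strand: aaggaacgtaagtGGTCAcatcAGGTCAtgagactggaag

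Among the 1401 matches, 714 had 1 mismatch in each half-site. The first half-site was complete in 349 regions and the second in 345. The fourth base of the half-site was the one that departed from the consensus most often. It was T in 67.6% of first half-sites and in 68.5% of second half-sites, where the other 5 bases matched in 85.3% to 89.7%. The first half-site had C there in 16.6% of regions, and the second had G in 17.8%. The spacer was not fixed by the rule. Its first base was G in 39.1% of regions and its last base was G in 37.1%, against 15.6% and 22.3% for A at the same positions.

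The DR4 was not the spacing found most often. Under the same mismatch limit, and before regions with a DR1 were left out, a pair spaced by 4 bases was present in 1535 of 51733 distal regions (2.97%). A pair spaced by 1 base (DR1), the element of RXR with the peroxisome proliferator-activated receptors, was present in 4.77%. The spacings of 0, 2, 3 and 5 to 8 bases were present in 2.48% to 3.01%, and the half-site written backwards (ACTGGA) with the spacing of 4 in 2.69%. With at most 1 mismatch the DR4 was found in 170 distal regions and the backwards pair in 127, and with none in 13 and 4. The same counts were 171 and 16 at spacing 2, 160 and 15 at spacing 5, and 397 and 39 at spacing 1. At spacings of 0, 3 and 6 to 8 bases they were 103 to 124 and 4 to 7. The strict counts of the DR4 were thus like those of spacings 2 and 5. A match is a description of the sequence and not of a bound receptor.

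**Figure D1:**
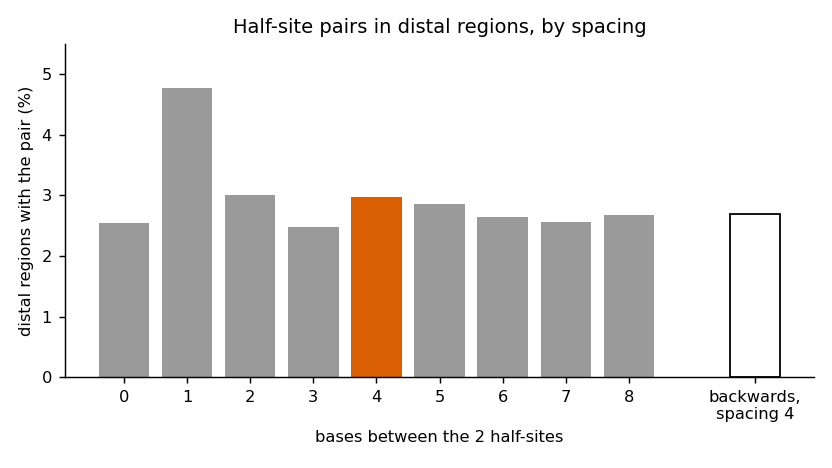
Percent of the 51733 distal regions (y axis) that held 2 half-sites in the same direction at each spacing in bases (x axis), with at most 2 mismatches, and the half-site written backwards at spacing 4 (open bar). The bar at spacing 4 (orange, 2.97%) stood beside 3.01% at spacing 2 and 2.86% at spacing 5, and the bar at spacing 1 reached 4.77%.

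The centre of the match lay at a median of 42.5 bp from the summit in the members, and within 25 bp in 31.4%. For all distal DR4 matches, DR1 regions included, these values were 41.5 bp and 31.7%, and for the backwards pair they were 46.5 bp and 25.3%. Of the members, 753 lay in introns (53.7%), 595 were intergenic (42.5%), and 25 were in UTRs, 15 in coding exons and 13 in noncoding exons. All distal regions were in introns in 54.7% and intergenic in 40.5%. The median distance to the nearest TSS was 14.2 kb in members and 15 kb in the other distal regions, the median width 384 and 394 bp, and the median GC content 49.8% and 49.3%. In 232 members (16.6%) the match lay in soft-masked repeat sequence, which made up 15.6% of the bases of the members' windows and 13.1% of those of all distal windows. Members were weaker peaks by a small margin: by rank of the p-value within a list they stood at a median percentile of 33, against 35.5 for the other distal regions.

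Motifs of other factors were counted in the same windows by exact match on both strands. The PU.1 motif (GAGGAAGT), for the factor that sets macrophage fate, was in 12.1% of members and 12.2% of other distal regions. The C/EBP motif (TTGCNNAA) was in 13.9% and 16.7%, the AP-1 motif (TGANTCA) in 11.8% and 13.7%, the RUNX motif (TGTGGT) in 26.1% and 26.6%, and the E-box (CACGTG), read by bHLH factors such as Bhlhe40 and Bhlhe41, in 5.35% and 4.85%. Motifs may overlap each other and the DR4. Other half-site pairs were more frequent in members than in the other distal regions, 7.28% against 2.89% at spacing 2 and 5.21% against 2.4% at spacing 3; these share half-site letters with the DR4 and with the rule.

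To ask which distal DR4 regions change when RXR is absent, the number of libraries with a peak was compared first. Each WT list had a peak at 1086 to 1274 of the 1401 regions (84% ± 5.51, SD, n = 4) and each KO list at 1065 to 1158 (79.1% ± 2.47, SD, n = 3), and the groups overlapped. The other distal regions had a peak in 84.9% ± 5.56 of cases in WT (SD, n = 4) and 80.2% ± 1.36 in KO (SD, n = 3). Of the members, 840 had a peak in all 8 libraries, 275 in more WT than KO libraries (19.6%) and 144 in more KO than WT libraries (10.3%). Over all distal regions these shares were 19.8% and 10.8%.

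**Figure D2:**
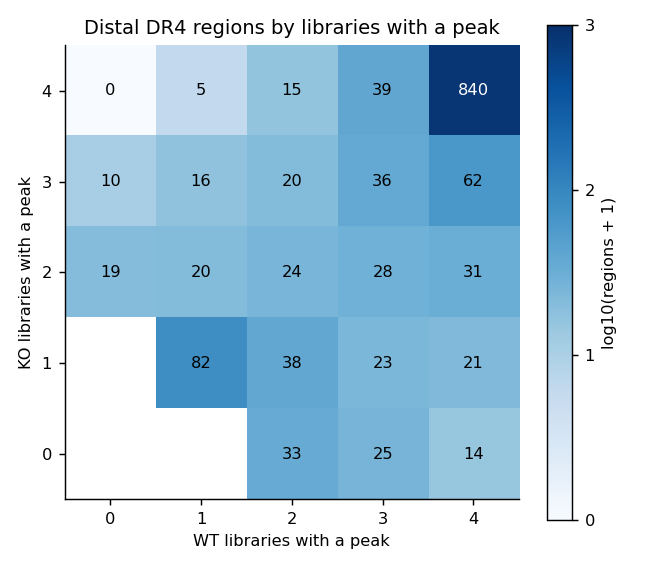
Number of distal DR4 regions (figure in each cell, colour on a log10 scale of regions + 1) by how many of 4 WT libraries (x axis) and 4 KO libraries (y axis) had a peak there. The corner with all 8 libraries held 840 regions, the corner with 4 WT and 0 KO libraries held 14, and the opposite corner held 0.

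Of the 1401 members, 14 had a peak in all 4 WT libraries and in no KO library (0.999%, against 0.922% of all distal regions). The reverse pattern was found in 0 members, against 0.276% of all distal regions, and 10 members had a peak in 3 KO libraries and no WT library (0.714%, against 0.518%). With the KO pair as 1 sample the counts were 14 and 3 (distal regions 0.922% and 0.532%). Lists cut to equal length gave 11 (0.785%) and 5 (0.357%), against 0.698% and 0.487% of distal regions, so the count of 0 did not hold there. The 10 WT-only regions named below had 11.7 to 42.5 scaled tags in WT, where the smallest summits called in any list had 6 to 9 tags before scaling.

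The WT-only regions with the strongest peaks are described with their values in the WT libraries in the order given above (1_2, 1_3, 3, 4). The region in an intron of Pmepa1, a target of TGF-β signalling, at chr2:173229568-173230312 and 11.1 kb from the TSS of Zbp1, a sensor of Z-form nucleic acid, had 26.4, 21, 25.9 and 25.1 scaled tags. The intron of Tacc1, at chr8:25173363-25173677, was the highest of the set with 39.1, 32.3, 42.5 and 42.2. An intron of Egfem1 (chr3:29104949-29105233) had 30.3, 25.5, 20.3 and 19.4. None of the 4 KO lists had a peak at these 3 regions.

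The intergenic region at chr15:25524186-25524531, 68.7 kb from Gm36642 and 98.2 kb from Myo10, a myosin of filopodia, was the only one of the 14 with a full match, shown above. It had 18.6, 21.8, 22.2 and 13.7 scaled tags in the 4 WT libraries. The region near Gm9934 (chr7:93146530-93146954) had 33.2, 27.8, 40.7 and 25.1. In an intron of Itpkb, a kinase of inositol trisphosphate, 1.23 kb from its TSS (chr1:180331568-180331844), the values were 25.4, 33.1, 27.7 and 21.7. The remaining named regions lay in introns of Macrod2 (near Flrt3), Pgpep1 and Dgki, a diacylglycerol kinase, and 76.7 kb from Lyzl1, with 11.7 to 33.3 scaled tags over their WT libraries.

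Differences in level could be fitted for the 840 members with a peak in all 8 libraries, which leaves out by construction the regions lost altogether in one genotype. The fit was made over all 47499 such regions with limma, and calls are at a Benjamini-Hochberg adjusted p under 0.05. Over all regions 7.03% were called lower in KO and 5.81% higher, and over the 31665 fitted distal regions 8.57% and 5.15%. Of the 840 members, 96 were called lower (11.4%) and 29 higher (3.45%). Lower calls thus made up 76.8% of the members' calls and 62.4% of those of all distal regions. With the KO pair as 1 sample, 84 members were called lower (10%) and 24 higher (2.86%), against 7.77% and 4.34% of distal regions. The log2 of the deposited fold, which divides by local background, called 29 lower (3.45%) and 8 higher (0.952%), against 2.63% and 1.43% of distal regions.

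The median difference of the members, KO minus WT, was -0.009 on the log2 scale, against 0.011 for all distal regions and 0.043 for all fitted regions. The 5th and 95th percentiles of the members were -0.58 and 0.41, and those of all distal regions -0.55 and 0.44. A log2 difference of -1 or below was found in 11 fitted members (1.31%, against 0.644% of distal regions) and a difference of 1 or above in 2 (0.238%, against 0.347%). The libraries of the groups did not overlap, KO below WT, in 93 members (11.1%, against 9.60% of distal regions), and KO above WT in 43 (5.12%, against 6.98%).

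**Figure D3:**
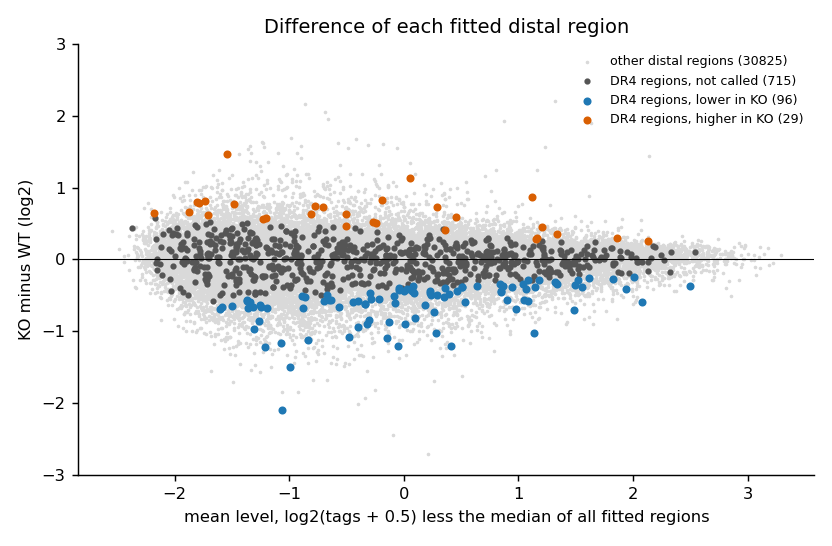
KO minus WT difference in log2 (y axis) against mean level (x axis, log2 of summit tags + 0.5 less the median of all fitted regions) for the 31665 fitted distal regions; coloured points are DR4 regions called lower (96, blue) or higher (29, orange) by limma. Most DR4 regions (715, dark grey) were not called, and the lower calls extended to -2.09 at Gm28721.

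Library by library, the median level of the members was -0.20 to -0.23 in WT and -0.28 to -0.33 in KO on the centred log2 scale, so the groups did not overlap, at -0.217 ± 0.0173 (SD, n = 4) and -0.31 ± 0.00735 (SD, n = 3). For the other distal regions it was -0.23 to -0.25 and -0.25 to -0.28. Taken region by region, the median difference of the same 840 members was -0.009, much smaller than the gap between these library medians. The library medians alone therefore do not show that the members fell as a set.

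The share of members called lower was compared between kinds of match as counts. It was 1 of 3 fitted regions with no mismatch, 8 of 86 with 1 mismatch (9.3%) and 87 of 751 with 2 (11.6%). Distal regions just outside the rule, with 3 mismatches and no DR1, were called lower in 9.06% and higher in 5.67% of 4902. Distal regions with a DR1 and no DR4 were called lower in 18.9% and higher in 2.89% of 1490, with a median difference of -0.111. Regions with the spacing of 2, 3 or 5 and neither DR4 nor DR1 were called lower in 11.1% and higher in 4.89% of 2087. No test was made between these sets.

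Calls were also counted by distance from the TSS and by level. Members within 10 kb of a TSS were called lower in 39 of 328 (11.9%, all distal regions there 7.17%) and higher in 6 (1.83%, against 5.07%). Members at 10 to 50 kb were called lower in 45 of 416 (10.8%, against 9.06%) and higher in 20 (4.81%, against 5.17%), and those at 50 to 100 kb lower in 12 of 96 (12.5%, against 11%) and higher in 3 (3.12%, against 5.36%). Under 30 scaled tags 12 of 211 members were called lower (5.69%, all distal regions at that level 5.29%) and 9 higher (4.27%, against 3.83%), which is near the background. From 30 to 100 tags 53 of 393 were called lower (13.5%, against 9.83%) and 13 higher (3.31%, against 5.73%), and over 100 tags 31 of 236 lower (13.1%, against 8.9%) and 7 higher (2.97%, against 5.16%). Members whose match lay within 25 bp of the summit were called lower in 22 of 234 (9.4%) and higher in 10 (4.27%). The others were called lower in 74 of 606 (12.2%) and higher in 19 (3.14%). Over all distal regions 8.57% were called lower and 5.15% higher. By other motifs, 16 of 118 members with the PU.1 motif were called lower (13.6%, all distal regions with it 7.83%) and 2 higher (1.69%, against 3.89%). With the C/EBP motif 6 of 119 were called lower (5.04%, against 9%) and 6 higher (5.04%, against 4.43%). With the AP-1 motif the calls were 9 lower and 6 higher of 111 (8.11% and 5.41%, against 8.48% and 8.02%), with the RUNX motif 25 and 9 of 229 (10.9% and 3.93%, against 9.9% and 4.94%), and with the E-box 3 and 4 of 50 (6% and 8%, against 6.37% and 6.12%). These shares were not tested against each other.

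The region with the largest fall was intergenic, at chr1:90234492-90235014, 25.4 kb from the noncoding gene Gm28721 and 30.7 kb from Ackr3, a scavenging chemokine receptor. It had 65.4, 66.9, 67.5 and 70.7 scaled tags in the WT libraries, in the order given above, and 16.1, 14.3, 20.5 and 12 in the KO libraries. The 4 WT libraries were close to each other, and every KO library was far below them. Means were 67.6 ± 2.2 (SD, n = 4) in WT and 15.9 ± 4.3 (SD, n = 3) in KO. The fit of 8 libraries gave a log2 difference of -2.09 ± 0.18 (SE, limma adjusted p = 3.88e-12). With the KO pair as 1 sample it was -2.08 ± 0.19 (SE, limma adjusted p = 6.17e-11).

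The intergenic region 48.4 kb from Prok2, which encodes a secreted prokineticin, was second (chr6:99774570-99775066). It had 52.7, 52.6, 66.5 and 60.4 scaled tags in WT and 21.1, 20.4, 23.9 and 15.6 in KO, with no overlap. The log2 difference was -1.50 ± 0.18 (SE, limma adjusted p = 2.10e-08). In an intron of Map2k6, an activating kinase of p38, the region at chr11:110426764-110427140 had 45.9, 45.8, 53.6 and 36.5 in WT and 28.2, 14.3, 20.5 and 15.6 in KO. It was lower by -1.22 ± 0.20 (SE, limma adjusted p = 1.24e-05), and its match lay 2.5 bp from the summit.

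In Ppip5k1, a kinase that makes inositol pyrophosphates, an intron region (chr2:121329381-121329865) had 134, 131, 128 and 164 scaled tags in WT and 52.3, 48, 66.1 and 76.8 in KO. All KO libraries were below all WT libraries, with means of 139 ± 16.7 (SD, n = 4) in WT and 64.3 ± 13.4 (SD, n = 3) in KO and a difference of -1.21 ± 0.13 (SE, limma adjusted p = 1.17e-09). A region 7.24 kb from Tmem138, a gene of the primary cilium, carried 1 mismatch (chr19:10569676-10570060). Its levels were 102, 90.2, 85 and 130 in WT and 45.2, 44.9, 41 and 42 in KO, the KO libraries being alike and the WT libraries spread, and the difference was -1.20 ± 0.14 (SE, limma adjusted p = 1.05e-08).

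An intron of Prkce, protein kinase C epsilon, had 50.8, 40.6, 54.5 and 49 scaled tags in WT and 22.1, 17.3, 23.9 and 22.8 in KO (chr17:86202990-86203459, log2 difference -1.16 ± 0.18, SE, limma adjusted p = 5.69e-06). An intron of Bcat1, the cytosolic branched-chain aminotransferase, had 67.4, 66.9, 57.3 and 38.7 in WT and 31.2, 25.5, 20.5 and 26.4 in KO (chr6:145003501-145003818, log2 difference -1.12 ± 0.18, SE, limma adjusted p = 1.36e-05). In this intron the lowest WT library was still above the highest KO library. The Clec16a intron, of a gene linked to mitophagy, had 89.9, 87.9, 85 and 99.1 and 51.3, 56.1, 28.5 and 37.2 (chr16:10565949-10566367, log2 difference -1.10 ± 0.16, SE, limma adjusted p = 1.03e-06). The Bcat1 and Clec16a calls were lost when the deposited fold was tested (adjusted p = 0.378 and 0.0842 by limma).

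A region 44.2 kb from Nnmt, which methylates nicotinamide, had 72.3, 62.4, 83.2 and 69.5 scaled tags in WT and 29.2, 41.8, 33 and 31.2 in KO (chr9:48648972-48649546, log2 difference -1.08 ± 0.16, SE, limma adjusted p = 1.52e-06). The tenth region lay at chr2:167743985-167744540, 33.1 kb from Gm14321 and 55.4 kb from the TSS of Cebpb, a transcription factor of myeloid cells. It was the most accessible of the 10, with 185, 193, 213 and 283 in WT and 122, 125, 108 and 74.4 in KO. The groups did not overlap, and the difference was -1.03 ± 0.12 (SE, limma adjusted p = 1.53e-08).

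**Figure D4:**
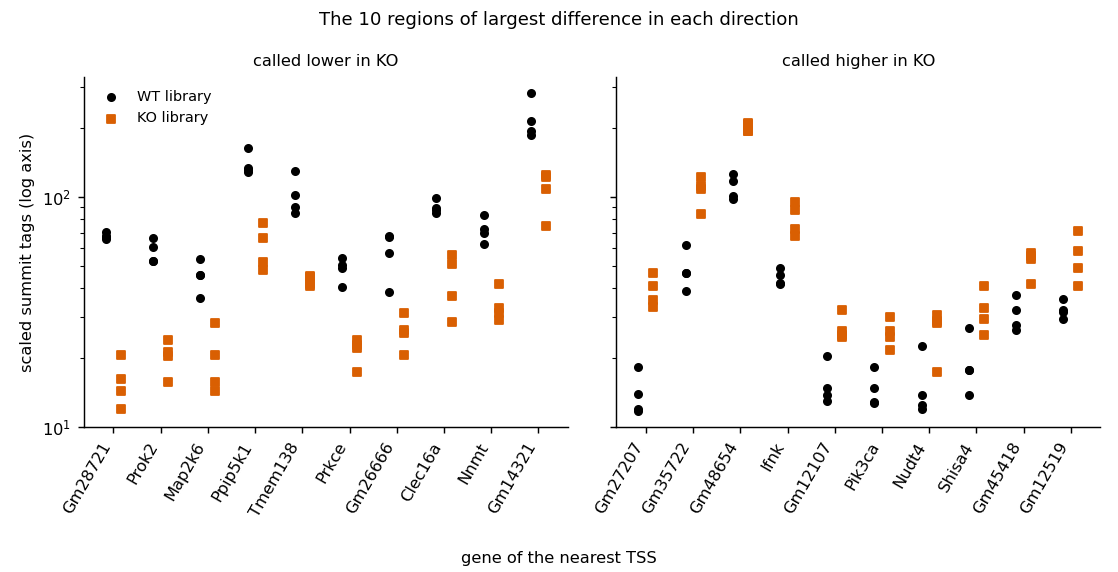
Scaled summit tags on a log axis (y axis) in each WT library (black circles) and KO library (orange squares) for the 10 DR4 regions of largest difference called lower (left) and the 10 called higher (right), named on the x axis by the gene of the nearest TSS. The WT and KO points are apart in every region on the left, and they overlap at Nudt4 and Shisa4 on the right.

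Among the regions called higher, the largest difference was at an intergenic region 27 kb from Gm27207 (chr8:87345805-87346215), with no coding TSS nearer than 126 kb. It had 11.7, 12, 13.9 and 18.2 scaled tags in WT and 33.2, 35.7, 46.7 and 40.8 in KO, so that every KO library was above every WT library. Means were 14 ± 3 (SD, n = 4) in WT and 40.7 ± 6.14 (SD, n = 3) in KO, a difference of 1.47 ± 0.20 (SE, limma adjusted p = 4.50e-07). The region 93.4 kb from Gm35722 (chr10:100834799-100835280) had 61.5, 46.6, 38.8 and 46.7 in WT and 122, 84.7, 112 and 108 in KO (log2 difference 1.14 ± 0.14, SE, limma adjusted p = 4.93e-08). An intron of Sash1, a signalling scaffold, carried a match with 1 mismatch and had the highest level of the 10 largest rises, with 126, 97.7, 117 and 101 in WT and 210, 208, 194 and 194 in KO (chr10:8759107-8759634, log2 difference 0.87 ± 0.10, SE, limma adjusted p = 5.11e-09). The Sash1 groups were apart by a wide gap, but its difference on the deposited fold was 0.19 and was not called.

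The next 7 of the 10 largest rises had differences of 0.73 to 0.83. An intron of Mob3b, 13.7 kb from Ifnk, the gene of interferon kappa, had 42, 45.8, 49 and 42.2 scaled tags in WT and 67.4, 72.5, 94.6 and 87.6 in KO (chr4:35137981-35138564, log2 difference 0.83 ± 0.14, SE, limma adjusted p = 3.69e-05), and its call was lost on the deposited fold (0.50, limma adjusted p = 0.0523). An intron of Pik3ca, the catalytic subunit of phosphoinositide 3-kinase alpha, had 12.7, 12.8, 14.8 and 18.2 and 30.2, 24.5, 26.2 and 21.6 (log2 difference 0.80 ± 0.21, SE, limma adjusted p = 0.00576), and the region near Gm12107, 21.7 kb from Cpeb4, an mRNA-binding protein, had 14.7, 20.3, 12.9 and 13.7 and 32.2, 24.5, 26.2 and 25.2 (log2 difference 0.81 ± 0.20, SE, limma adjusted p = 0.00478). Groups also did not overlap near Gm12519 (log2 difference 0.73 ± 0.17, SE, limma adjusted p = 0.00233) or near Gm45418, 7.5 kb from Ddx60, an antiviral helicase (log2 difference 0.74 ± 0.17, SE, limma adjusted p = 0.00179). At Nudt4, which breaks down inositol pyrophosphates, and near Shisa4 they overlapped, since WT replicate 1_3 (22.5 and 27 tags) was above the lowest KO library (17.3 and 25.2). Their differences were 0.79 ± 0.22 (SE, limma adjusted p = 0.0118) and 0.77 ± 0.21 (SE, limma adjusted p = 0.00804); the call near Shisa4 was lost without KO replicate 1_2 and on the deposited fold, and the Nudt4 call without WT replicate 3 or KO replicate 2, on the deposited fold and under the replicate block (limma, adjusted p = 0.0743).

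The 7 full matches were mostly weak regions, and 3 of them had a peak in all libraries. The intron region of Lrrfip1, which encodes a nucleic acid-binding protein (chr1:91092474-91092816) had 78.1, 64.6, 59.1 and 61.5 scaled tags in WT and 37.2, 42.9, 49 and 63.6 in KO. KO replicate 3, at 63.6, was inside the WT range, and the difference was -0.47 ± 0.16 (SE, limma adjusted p = 0.0372). That call was lost with the KO pair as 1 sample (limma, adjusted p = 0.115), with replicates 1_2 and 1_3 merged in both genotypes (0.194), on the deposited fold (0.409), and without WT replicate 1_2 or 1_3 or KO replicate 1_2, 1_3 or 2. The region near Nrbf2, which encodes a subunit of an autophagy kinase complex, had 20.5, 20.3, 25.9 and 33 and 15.1, 25.5, 25.1 and 22.8 (log2 difference -0.17 ± 0.21, SE, limma adjusted p = 0.658), and the Tbc1d1 intron, of a Rab GTPase-activating protein, had 24.4, 26.3, 19.4 and 18.2 and 23.1, 20.4, 25.1 and 37.2 (log2 difference 0.24 ± 0.20, SE, limma adjusted p = 0.493). Both overlapped between groups. Of the other full matches, the region 56.1 kb from Lifr, the leukaemia inhibitory factor receptor, had a peak in 3 WT libraries (10.5 to 14.7 tags) and no KO library, the intron of Ptpre, a tyrosine phosphatase, in 4 WT and 3 KO libraries, and the region near Isx, an intestinal homeobox gene, in 3 and 3.

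The 3 regions with 1 mismatch that ranked highest by p-value within the lists were not called. The B4galt5 intron region (chr2:167318842-167319456), of a gene for lactosylceramide synthesis, had 276, 249, 283 and 337 scaled tags in WT and 295, 275, 260 and 283 in KO (log2 difference -0.04 ± 0.08, SE, limma adjusted p = 0.824). The region 21.2 kb from Asb4 had 274, 243, 237 and 255 and 250, 256, 224 and 241 (log2 difference -0.05 ± 0.08, SE, limma adjusted p = 0.724), and the region near F12, the gene of coagulation factor XII, had 218, 204, 230 and 269 and 239, 227, 237 and 252 (log2 difference 0.06 ± 0.09, SE, limma adjusted p = 0.724). The groups overlapped at all 3, and the standard error at these levels was 0.08 to 0.09.

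LXR target genes came next: 11 of 28 listed genes had at least 1 member within 100 kb of a TSS, 13 members in all. Of the 8 that were fitted, 1 was called lower and 0 higher, with a median difference of -0.13, where 8.57% of all fitted distal regions were called lower and 5.15% higher with a median of 0.011. Abcg1, an exporter of cholesterol, had 4 fitted members and none of them was called. The region 17.9 kb from its TSS (chr17:31039592-31040044) had 195, 179, 217 and 203 scaled tags in WT and 197, 182, 219 and 164 in KO (log2 difference -0.07 ± 0.09, SE, limma adjusted p = 0.704). The first intron region, 1.18 kb from the TSS (chr17:31058480-31059164), had 68.4, 80.4, 82.2 and 85.5 and 66.4, 71.4, 75.2 and 54 (log2 difference -0.25 ± 0.13, SE, limma adjusted p = 0.223), and the intron regions at 9.5 and 42.9 kb differed by -0.02 ± 0.13 (SE, limma adjusted p = 0.934) and 0.02 ± 0.17 (SE, limma adjusted p = 0.957). The groups overlapped at all 4.

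Mertk, a receptor for the uptake of apoptotic cells, had 3 members in its introns. The region 83.5 kb from the TSS (chr2:128782233-128782596) had 26.4, 35.3, 36 and 47.9 scaled tags in WT and 23.1, 16.3, 25.1 and 27.6 in KO, and the difference was -0.64 ± 0.20 (SE, limma adjusted p = 0.0241). The highest KO library was above the lowest WT library. Its call was lost on the deposited fold, with the KO pair as 1 sample (limma, adjusted p = 0.0621), under the replicate block, and without WT replicate 3, WT replicate 4 or KO replicate 1_3. The second Mertk region had a peak in 3 WT libraries, at 23.3 to 26.8 tags, and in no KO library, and the third in 4 WT and 3 KO libraries.

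At the other LXR targets no fitted member was called. The Arfgap2 intron region, 77.8 kb from Nr1h3, the gene of LXRα, had 32.2, 30.1, 31.4 and 31.9 scaled tags in WT and 25.1, 33.7, 21.7 and 27.6 in KO (log2 difference -0.23 ± 0.18, SE, limma adjusted p = 0.456). In the intron of Nceh1, which hydrolyses cholesteryl esters, the difference was 0.27 ± 0.15 (SE, limma adjusted p = 0.243), and at the Relb intron, 54.7 kb from the nearest TSS of the Apoe and Apoc1 cluster, it was -0.19 ± 0.19 (SE, limma adjusted p = 0.571). The coding exon region of Abca1, the other main cholesterol exporter, had a peak in 2 WT libraries (12.9 and 13.5 tags) and in 4 KO libraries (17.1 to 29.2 tags). Members near Mylip, which marks the LDL receptor for degradation, and Elovl5, a fatty acid elongase, had a peak in 1 and 3 libraries of each genotype.

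Of 19 genes for partner and related receptors, 8 had a member nearby, 9 members in all. Of 7 that were fitted, 2 were called lower and 0 higher (distal regions 8.57% and 5.15%), with a median difference of -0.08. An intron of Rora, an orphan receptor, had 34.2, 55.6, 29.6 and 35.3 scaled tags in WT and 23.1, 24.5, 30.8 and 16.8 in KO (chr9:69319473-69320277, log2 difference -0.68 ± 0.20, SE, limma adjusted p = 0.0179), and an intron of Col2a1, 84.8 kb from Vdr, the vitamin D receptor, had 48.8, 60.9, 84.1 and 63.8 and 45.2, 40.8, 33 and 51.6 (chr15:97992768-97993400, log2 difference -0.58 ± 0.16, SE, limma adjusted p = 0.0123). In both the highest KO library was above the lowest WT library. The Rora call was lost without WT replicate 1_3 or KO replicate 3, with replicates 1_2 and 1_3 merged in both genotypes (limma, adjusted p = 0.0632) and on the deposited fold, and the Col2a1 call without WT replicate 3 or KO replicate 2. The region 2.26 kb from the TSS of Nr1d1, which overlaps Thra, the thyroid hormone receptor gene, had 93.8, 96.2, 120 and 136 in WT and 95.5, 95.9, 95.7 and 94.8 in KO (log2 difference -0.20 ± 0.12, SE, limma adjusted p = 0.258). The Casc3 intron, 41.6 kb from Nr1d1 or Thra, differed by 0.17 ± 0.12 (SE, limma adjusted p = 0.391).

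Of 44 AM genes, 14 had a member nearby, 19 members in all, and 11 were fitted. Of these, 1 was called lower, the Cebpb-side region given above, and 0 higher (distal regions 8.57% and 5.15%), with a median difference of -0.07. Cebpb had 5 members within 100 kb, of which 4 were fitted. The other 3 differed by -0.07 ± 0.09, 0.04 ± 0.13 and -0.19 ± 0.09 (SE), and none of them was called. The Ear10 region, 46.4 kb from Ear1, an eosinophil-associated ribonuclease gene, had 101, 88.7, 106 and 100 scaled tags in WT and 75.4, 94.9, 79.8 and 74.4 in KO (log2 difference -0.29 ± 0.12, SE, limma adjusted p = 0.0989). In the UTR of Bhlhe41, a transcriptional repressor, the values were 58.6, 65.4, 67.5 and 53.6 and 70.4, 67.4, 70.7 and 96 (log2 difference 0.30 ± 0.14, SE, limma adjusted p = 0.146), and at the Mmp27 intron near Mmp8 the difference was 0.25 ± 0.12 (SE, limma adjusted p = 0.189).

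Of 12 genes of immature cells and monocytes, 3 had a member nearby, 5 members in all, and none of the 4 fitted members was called (distal regions 8.57% lower and 5.15% higher), with a median difference of 0.02. Ccr2, the chemokine receptor of inflammatory monocytes, had 3. Its UTR region (chr9:124103175-124103654) had 48.8, 48.8, 54.5 and 45.6 scaled tags in WT and 37.2, 39.8, 36.5 and 43.2 in KO, and every KO library was below every WT library, but the difference of -0.33 ± 0.16 (SE, limma adjusted p = 0.166) did not pass. The other 2 differed by 0.07 ± 0.15 (SE, limma adjusted p = 0.805) and 0.36 ± 0.21 (SE, limma adjusted p = 0.283). The Pdgfrb intron, 38.1 kb from Csf1r, the receptor of macrophage colony-stimulating factor, differed by -0.03 ± 0.15 (SE, limma adjusted p = 0.917).

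**Figure D5:**
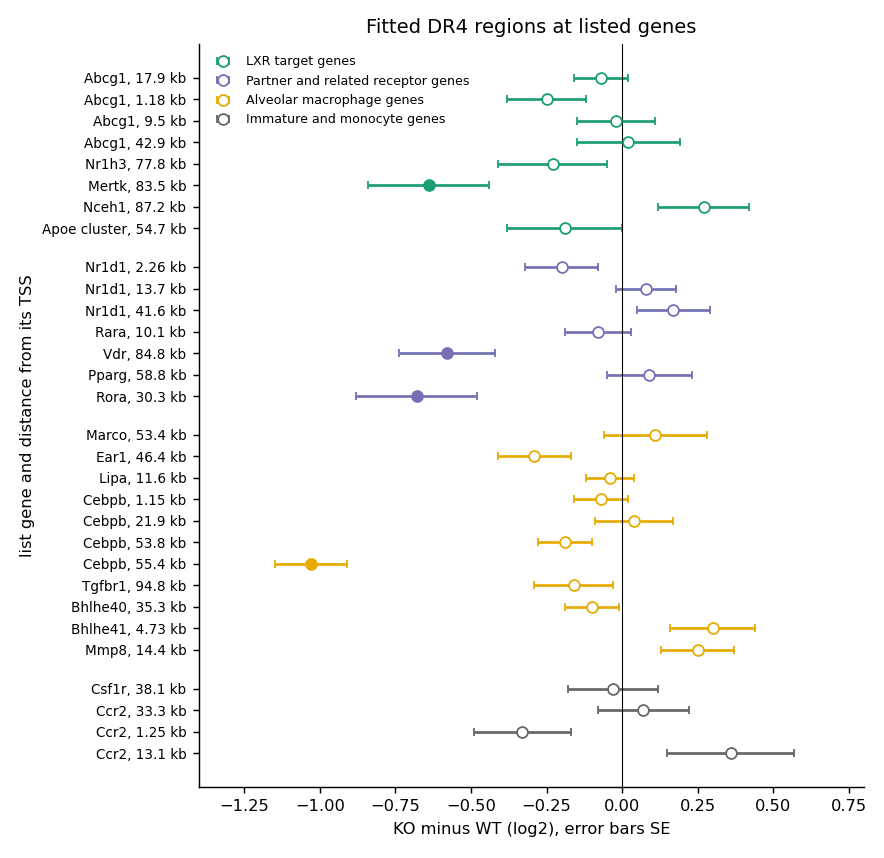
KO minus WT difference in log2 (x axis, points with SE bars) for every fitted DR4 region at a gene of the 4 lists (y axis, gene and distance of the summit from its TSS, colours by list). Filled points were called by limma over all regions, and these are the Mertk, Vdr, Rora and 1 of the Cebpb regions, all of them to the left of 0.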

How the data were processed

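The measurements were 8 deposited ATAC-seq peak lists, 4 of WT and 4 of KO alveolar macrophages. By the methods of the paper, read trimming was with Cutadapt, alignment to mm10 with Bowtie2, and duplicates and read pairs that were improper or poorly mapped were dropped; MACS3 then called peaks library by library, at a threshold of 0.05 on q. The deposited columns hold the fold over local background as a ratio, the −log10 of the p-value and of the q-value, and a score that was not used. Summit tags were recovered from the deposited fold and −log10 p-value, and 100% came out whole (tolerance 1e-05). Precision was limited by these tags, and intervals cover counting error and library spread only.

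Sequence was read from RefSeq's GRCm38.p6, the mm10 assembly, and TSS from coding and long noncoding genes of GENCODE M21. Log2(tags + 0.5), centred on the median of each library, was tested with limma 3.58.1 in R 4.3.3 with a trended prior, two-sided, over 47499 regions with a peak in all 8 libraries, with Benjamini-Hochberg adjustment. The fit was tested on simulated data. Regions were named by rule: the 10 largest called differences in each direction, the strongest regions of 1 genotype only, those with fewest mismatches, every fitted region at an LXR target gene, and up to 4 at each other gene list. The members, lists and rules were chosen with earlier results of these data known. Alternatives were other scalings, pseudocounts and filters, libraries left out or merged, a replicate block, and stricter or wider member rules. Merging the KO pair was added after the data were seen.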

Additional observations from a re-analysis of the deposited data

Results flagged for a closer look

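In 96 sets of 4 libraries of 1 genotype (per-library measures of the members and the named, fitted regions), 3 had a library whose gap to the nearest other, relative to the range, was above Dixon's 95% critical value, which chance exceeds in about 1 in 20 sets. In the Nudt4 intron, WT replicate 1_3 had 22.5 scaled tags and the other WT libraries 12 to 13.7. In the Ppip5k1 intron, WT replicate 4 had 164 and the others 128 to 134. In the Bhlhe41 UTR, KO replicate 3 had 96 and the others 67.4 to 70.7. The Nudt4 difference remained called without that library, as did the Ppip5k1 difference, and the Bhlhe41 difference was not called in any fit.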

How the results depend on the processing

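The share of members called lower was 11.4% and higher 3.45%, against 8.57% and 5.15% of all distal regions. On the log2 of the deposited fold the shares were 3.45% and 0.952%, against 2.63% and 1.43% of all distal regions. With tags scaled to the total the median difference was -0.043, against -0.009. A change of scaling moves all regions of a library by nearly the same amount, so this shift is not particular to the members. Under that scaling 13% were called lower and 2.74% higher, against 9.99% and 4.02% of all distal regions. With at most 1 mismatch 9 of 89 fitted members were called lower (10.1%) and 2 higher (2.25%), and the median was -0.058. Leaving out 1 library at a time gave 8.81% to 10.5% lower, 2.14% to 4.4% higher (18 regions without WT replicate 3) and medians of -0.022 to -0.007. Over all distal regions these shares were 6.76% to 8.05% lower and 3.58% to 5.56% higher. With 1 library left out, the share with a peak in all WT and no KO libraries ranged from 1.07% to 1.93% (27 regions without WT replicate 4). Over all distal regions it ranged from 1.04% to 1.65%. The reverse ranged from 0% to 0.286% (4 regions without KO replicate 3), against 0.346% to 0.537% of all distal regions. Leaving out a library loosens the rule, so these counts could only stay or rise. With lists of equal length the reverse was 0.357%, against 0.487% of all distal regions. Replicates 1_2 and 1_3 as 1 sample in both genotypes gave 1.57% and 0.214% (all distal regions 1.5% and 0.532%). Merged in KO alone they gave 0.999% and 0.214% (all distal regions 0.922% and 0.532%). The cause of the other changes was not tested. The replicate block gave 9.76% lower and 4.4% higher, against 8.32% and 6.14% of all distal regions. The pairing was not assumed, because deviations of same-numbered libraries correlated at only 0.0555 (1_2), 0.1162 (1_3) and 0.0368 (3). Even so, each such library correlated best with its own number. The other alternatives kept each share within 1.5 times. A site within 50 bp of the summit left 421 fitted members, of which 50 were called lower (11.9%) and 13 higher (3.09%). Of 24 named calls, 14 held in all alternatives, 18 in all but the deposited fold, and none turned past the threshold. The smallest summits called had 6 to 9 tags, so a peak that is missing from a list is not a signal that is absent.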

Other observations

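A few genes had several distal DR4 regions. For 11 genes, 3 members had that gene's TSS as the nearest. Near Fam3c, a secreted factor, the 3 members differed by 0.21 ± 0.19, -0.03 ± 0.09 and -0.36 ± 0.09 (SE), and the last was called lower (limma adjusted p = 0.00414). Near Wdfy3, a scaffold of selective autophagy, they differed by -0.49 ± 0.13, 0.29 ± 0.10 and -0.14 ± 0.15 (SE), and the first was called lower (limma adjusted p = 0.00862). Near Hpcal1 the 3 members differed by 0.09 ± 0.14, -0.10 ± 0.09 and -0.03 ± 0.14 (SE), none of them called. The 3 members near Prex1, a Rac exchange factor, were not fitted.

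The 10 members with a peak in 3 KO libraries and no WT library were weak. The strongest was 18.8 kb from Cytip, a cytohesin-binding protein of lymphoid and myeloid cells, with 29.2, 21.4 and 33 scaled tags in the 3 KO libraries that had it (not replicate 3). The region 13 kb from Ezr, the gene of ezrin, had 25.1, 17.3 and 16.8 (not in KO replicate 2), and the others had 11.2 to 21.1.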
